A study of Mus musculus with 26 samples.

Results

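The comparison described here is the late step of a retinoic acid differentiation series in wild-type (WT) mouse embryonic stem cells (ESC), with day 4 set against day 2. Its 6 libraries, 3 of each day, were chosen by the genotype and day in their labels, out of 26 libraries in the series. The cells are KH2, a mouse ESC line, and each library holds reads of messenger RNA counted per gene by the authors. WT day 4 and WT day 2 are wild-type KH2 cells after that many days of retinoic acid, and WT day 0 is the same line at the start of the series, with 3 libraries. The same step was also sampled in KH2 cells whose labelled genotype is a knockout of the NAP1L1 alpha form (alphaKO) or a full NAP1L1 knockout (fullKO), with 3 libraries on each of days 2 and 4. NAP1L1 is a histone chaperone that carries H2A and H2B. The sources used here do not give the dose of retinoic acid, the use of feeder cells, or whether a knockout line is 1 clone. No untreated libraries of days 2 and 4 were used here, so retinoic acid and time in culture cannot be told apart. The labels do not say whether replicates came from separate cultures, so the spread behind each p-value is that of these libraries and may be technical.

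Retinoic acid enters the nucleus and binds retinoic acid receptors, which pair with retinoid X receptors on DNA and switch on nearby genes. Among the best known targets are the CYP26 enzymes that break retinoic acid down, the receptor gene Rarb, and Hox genes, which are laid out along their clusters in the order in which they act along the body axis. In ESC the treatment ends expression of the pluripotency network, and cells then take on features of several lineages. The question of the late step is which of the genes that moved by day 2 kept moving, stayed or turned back, and which genes moved after day 2 for the first time.

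Total counts were 13537267, 16386884 and 17266399 in the WT day 4 libraries and 15589729, 14386522 and 15480912 in the WT day 2 libraries. Genes of the mitochondrial genome took 1.65% to 1.956% of counts at day 4 and 1.662% to 1.916% at day 2. On principal components of log2 CPM (counts of a gene relative to the scaled size of its library) over the 9 WT libraries, the first component held 73.1% of the variance and the second 14.9%. The day 4 libraries lay at 93.92 to 94.68 on the first component and the day 2 libraries at 33.21 to 34.99. The second component set day 2 apart, at -59.09 to -56.76, from day 4 at 41.64 to 43.33 and from day 0 at 15.33 to 16.13. Replicates thus lay far closer to each other than days did. The stem cell label was checked on 12 general pluripotency genes, whose summed level was 5743 to 5891 CPM at day 0, 1404 to 1475 CPM at day 2 and 302.9 to 314.3 CPM at day 4.

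Of 18412 genes tested, 5559 rose (30.2%) and 5373 fell (29.2%) at day 4 against day 2, by edgeR's quasi-likelihood test at an adjusted p under 0.05. Here "rose" and "fell" are used for genes that passed this test. A change of at least 2-fold was found for 1594 genes that rose (8.66%) and 1880 that fell (10.2%). The fall had the longer tail, with 113 genes lower by at least 16-fold and 43 genes higher by as much. The median log2 fold change of all genes tested was 0, and the 3 libraries of day 4 lay apart from the 3 of day 2 in 63.4% of genes. Against shares this large, a gene list is read below by how far its counts stand from 30.2% higher and 29.2% lower. CPM is not divided by gene length, so levels are compared between days and not between genes.

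**Figure D1:**
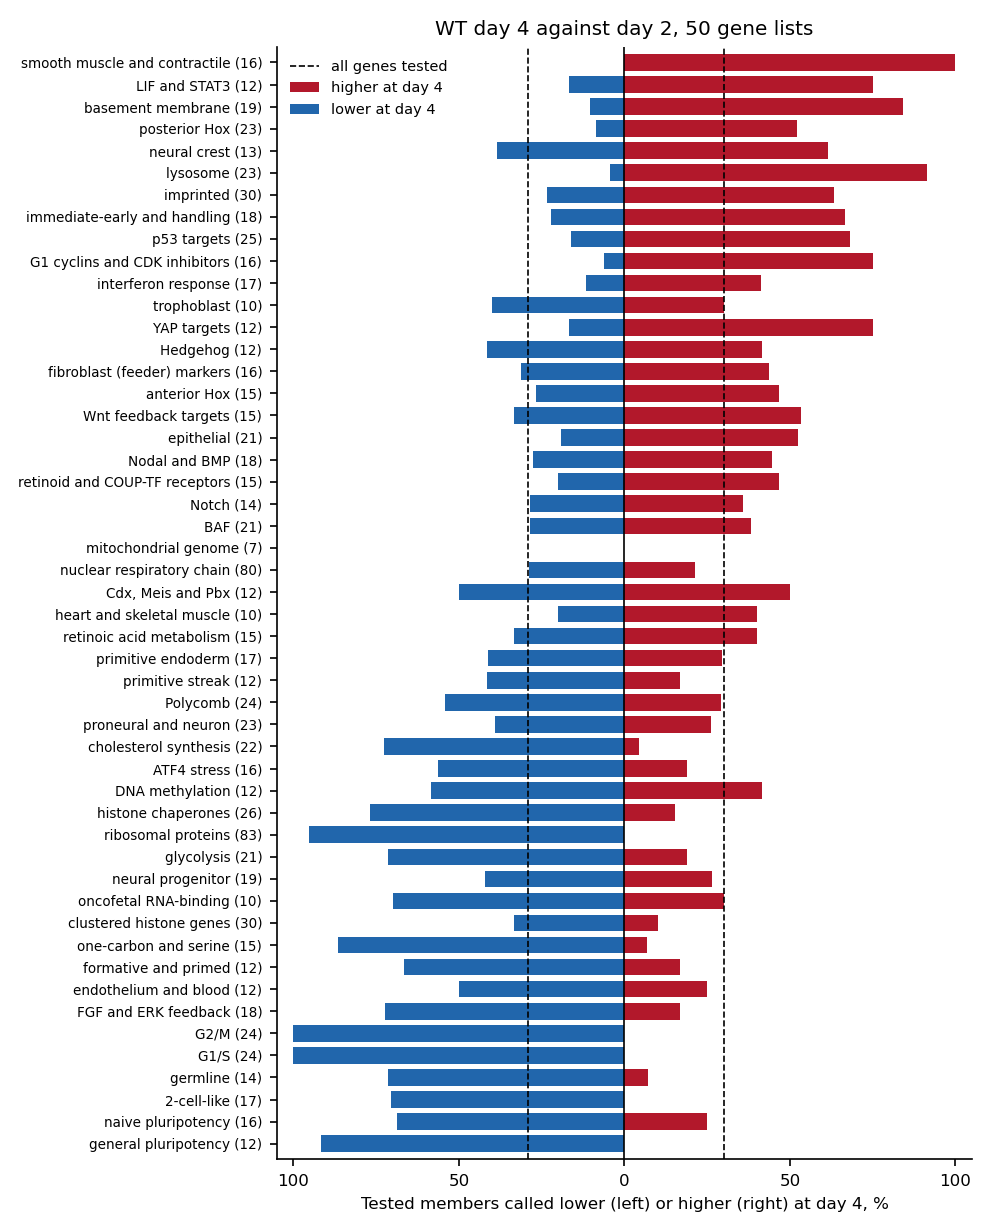
Percent of tested members of 50 gene lists that passed the test at WT day 4 against day 2, lower to the left and higher to the right, ordered by the list's median log2 fold change, with the number of members tested in brackets. Dashed lines mark the shares over all genes tested, 29.2% lower and 30.2% higher; the contractile list reaches 100% higher and the G1/S and G2/M lists 100% lower.

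Both steps of the WT course were then set side by side to part transient genes from late ones. A gene was put in a class when it passed the test with at least a 2-fold change in a step, or stayed within 0.5 (log2) of no change in it. A step within 0.5 counted as flat or level whether or not it passed the test. From day 0 to day 2, 70.7% of all genes passed the test. A total of 538 genes (2.92% of genes tested) were transient, higher at day 2 than at day 0 and lower again at day 4. A further 560 genes (3.04%) rose in both steps, 400 (2.17%) rose after a flat first step, and 1356 (7.36%) rose by day 2 and then stayed level. In the other direction 496 genes (2.69%) fell in both steps and 378 (2.05%) fell after a flat first step. A last class of 194 genes (1.05%) fell by day 2 and rose again by day 4. The 2 steps share the day 2 libraries, so a chance high or low value there moves both, and these counts are a description with no test. Of the 538 transient genes, 195 were still above day 0 at day 4, 44 were below it and 299 did not differ from it by the test, where over all genes 40.7% were higher and 36.7% lower at day 4 than at day 0. Of the 194 genes that rose again, 43 ended above day 0, 71 below it and 80 did not differ by the test.

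**Figure D2:**
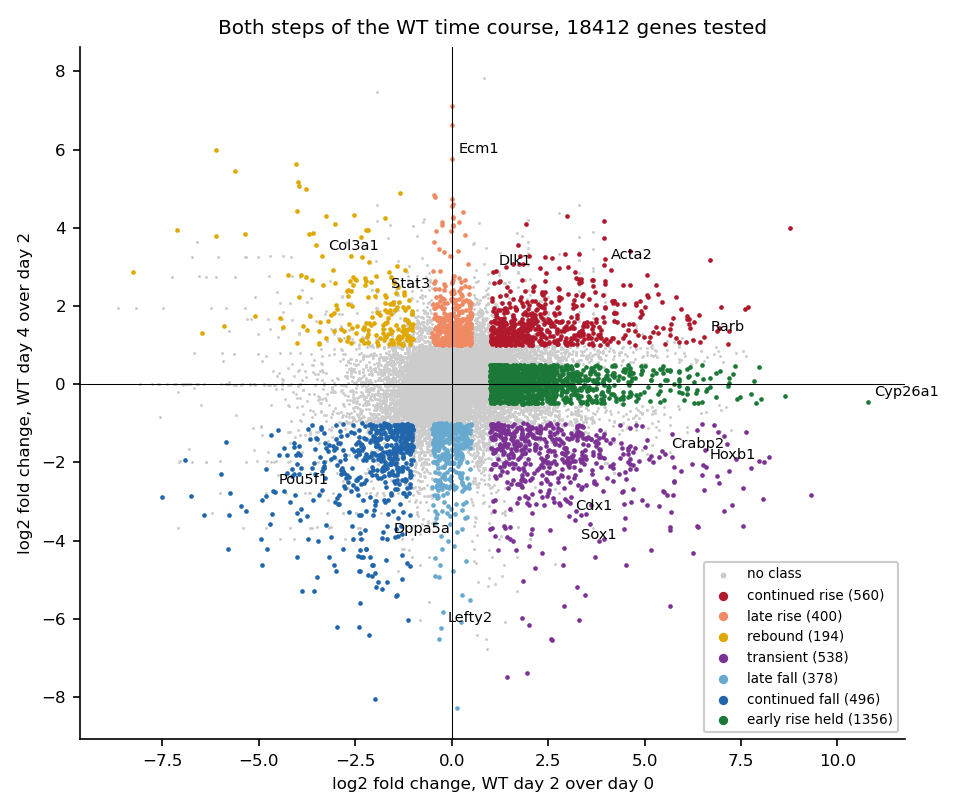
Log2 fold change of each of 18412 genes at WT day 2 over day 0 (horizontal) and at WT day 4 over day 2 (vertical), with genes of the 7 classes in colour and the number in each class in brackets. Named genes include the transient Cdx1, Sox1 and Hoxb1, the late-falling Lefty2, the late-rising Ecm1, and Col3a1 and Stat3, which fell by day 2 and rose by day 4.

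Among named genes that averaged 10 CPM or more on either day, predicted genes and pseudogenes left out, Ecm1, a secreted matrix glycoprotein, had the largest rise apart from Cxcl15, whose day 2 level was near 0. Ecm1 had 1701, 1871 and 2089 CPM in the day 4 libraries, against 36.23, 32.83 and 36.16 CPM at day 2, which is 5.75 ± 0.10 on the log2 scale (SE, with an adjusted p = 8.23e-39). It had 31.71, 38.93 and 33.73 CPM at day 0, so the level was flat over the first step and the day 4 libraries stood far above both earlier days. Cxcl15, a chemokine, had 543 counts over the day 4 libraries and 2 over the day 2 libraries, a ratio of 266 with a 95% counting interval of 73.1 to 2200. The other 10 of the 12 largest rises ran from 3.87 to 4.90. Among them were Smoc2, a matricellular protein, Col14a1, a fibril-associated collagen, Fat4, a large protocadherin, Rgs5, a G-protein regulator known from pericytes, and Dkk2, a Wnt modulator. Smoc2 had 97.18, 111.9 and 125.6 CPM at day 4 and 5.883, 4.468 and 5.371 CPM at day 2 (log2 fold change 4.41 ± 0.12). Fat4 had 59.54, 66.99 and 66.58 CPM at day 4 and 4.706, 4.4 and 3.623 CPM at day 2 (3.92 ± 0.15). The others were Tmem252, Mybpc3, Tmem176a, Pgm5 and Slc16a12. Of the 12, Ecm1, Mybpc3, Smoc2, Col14a1, Fat4 and Rgs5 met the late rise class.

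By the same rule the largest falls were in Lefty2 and Lefty1, secreted inhibitors of Nodal that are themselves switched on by Nodal signalling. Lefty2 had 2.611, 1.965 and 2.815 CPM at day 4, against 172.9, 198.5 and 187.1 CPM at day 2, or -6.24 ± 0.09 on the log2 scale (adjusted p = 5.59e-41). Lefty1 had 7.615, 6.014 and 5.228 CPM at day 4, against 256.7, 304.9 and 300 CPM at day 2 (-5.53 ± 0.12). At day 2 neither gene had moved by 2-fold from day 0, with an early log2 change of -0.28 for Lefty2 and 0.48 for Lefty1. Nodal, their ligand and inducer, kept the same order, with 12.26, 10.72 and 11.14 CPM at day 4 and 87.25, 93.89 and 91.75 CPM at day 2 (-3.0 ± 0.08). All 3 genes met the late fall class, with a first step within 0.5. Of 18 genes of the Nodal and BMP pathways, 8 rose and 5 fell. The largest rise among them was Bmp7, a BMP ligand, at 51.49, 58.59 and 59.29 CPM at day 4 against 7.121, 6.025 and 6.87 CPM at day 2 (3.08 ± 0.12). The other large falls were in the pluripotency-linked Gdf3 (-4.50 ± 0.12) and Dppa5a (-3.97 ± 0.07), in Ooep, a protein of the egg and early embryo, and in Pla2g1b, Fgfbp1, Apob, Dll1, Enpp3 and Dnah14. Of these, Fgfbp1, Apob, Dll1 and Dnah14 were transient, low at day 0 and raised at day 2.

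Genes that make, carry and break down retinoic acid parted from each other in the late step. Of 15 tested, 6 rose and 5 fell, close to the shares over all genes, with a median log2 fold change of -0.14. The CYP26 enzymes, which clear retinoic acid, went opposite ways. Cyp26a1 had 171.4, 177.6 and 153.3 CPM at day 4 and 216.8, 220.3 and 253.3 CPM at day 2, a fall of 0.46 on the log2 scale (SE 0.06; adjusted p = 6.41e-09) after a rise of 10.78 by day 2. Cyp26b1 had 161.1, 173.9 and 176.5 CPM at day 4 and 75.11, 69.18 and 97.44 CPM at day 2, a rise of 1.08 ± 0.07 (adjusted p = 3.87e-17). The days do not overlap in either gene. Crabp2, which carries retinoic acid to the receptors, was transient, with 78.83, 73.95 and 74.39 CPM at day 4, 250.4, 258.2 and 270.5 CPM at day 2, and 4.731 to 6.642 CPM at day 0 (-1.78 ± 0.05). Stra6, the retinol transporter, had 75.57, 91.1 and 95.48 CPM at day 4 and 86.01, 78.66 and 92.94 CPM at day 2. Its days overlap, and the change of 0.03 ± 0.07 did not pass the test (adjusted p = 0.732).

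Among 15 retinoid and COUP-TF receptors and cofactors, 7 rose and 3 fell, with a median of 0.10. Rarb, the retinoic acid receptor known as a direct target, had 30.02, 34 and 33.09 CPM at day 4, 12.76, 15.1 and 14.62 CPM at day 2, and at most 0.2336 CPM at day 0. Its late log2 fold change was 1.20 ± 0.10 (adjusted p = 7.05e-15), so it kept rising. Cyp26a1 fell slightly, within the limit of a level step, and so met the class of early rises that were held. Rarb overlaps Top2b on the other strand, and the strand setting of the counts is not given in the sources used here. Nr2f2 and Nr2f1, the orphan receptors COUP-TFII and COUP-TFI, are known retinoic acid targets. Nr2f2 had 166.9, 177.6 and 198.4 CPM at day 4 and 38.95, 33.17 and 40.72 CPM at day 2 (2.27 ± 0.08), and Nr2f1 rose by 1.70 ± 0.12. Nr6a1, the germ cell nuclear factor that represses Pou5f1, fell by 1.5 (SE 0.05) to 97.25, 90.15 and 91.23 CPM at day 4, against 265.7, 269.2 and 252.1 CPM at day 2.

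The promoters of Cyp26a1 and Rarb are shown because these genes took opposite courses after day 2 and yet both hold a direct repeat of the receptor-binding hexamer close to a RefSeq transcript start. The search was for 2 copies of the hexamer on the same strand with 5 bases between them, where a copy could be AGGTCA, the close variant AGTTCA, or the variant known from Rarb, GGTTCA, on either strand, in RefSeq promoter windows (GRCm38.p6) from 250 bases before to 50 bases after a transcript start. The Rarb window belongs to a start inside the gene as GENCODE outlines it, not to its outer end. Such a repeat was found in 0.0609% of 32851 windows, and in 8 genes among those tested. These genes did not share a course. Besides Cyp26a1 and Rarb, the log2 change by day 2 was 6.79 for Ppbp, 1.07 for Prokr2, 0.97 for Gm14133 and 0.72 for Tnfsf13b. It was -0.88 for Blvrb and -0.89 for Cfap45. In Cyp26a1 it lies on the other strand from the gene, with its first printed base 32 bases before the start, and in Rarb on the same strand, 53 bases before it. Capitals mark the repeat in the bases from 150 before to 30 after the start, read 5′ to 3′ on the gene's strand (chr19:37697658-37697837, plus strand, and chr14:16575447-16575626, minus strand).
Cyp26a1: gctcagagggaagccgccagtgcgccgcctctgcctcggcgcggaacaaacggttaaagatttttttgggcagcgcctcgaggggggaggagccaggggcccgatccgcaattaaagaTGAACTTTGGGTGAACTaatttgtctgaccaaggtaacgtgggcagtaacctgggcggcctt
Rarb: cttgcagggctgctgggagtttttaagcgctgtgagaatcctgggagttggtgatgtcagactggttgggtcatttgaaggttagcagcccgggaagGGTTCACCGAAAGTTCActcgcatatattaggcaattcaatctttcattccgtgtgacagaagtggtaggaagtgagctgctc
A match is a run of letters in this window and does not show that a receptor binds there.

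**Figure D3:**
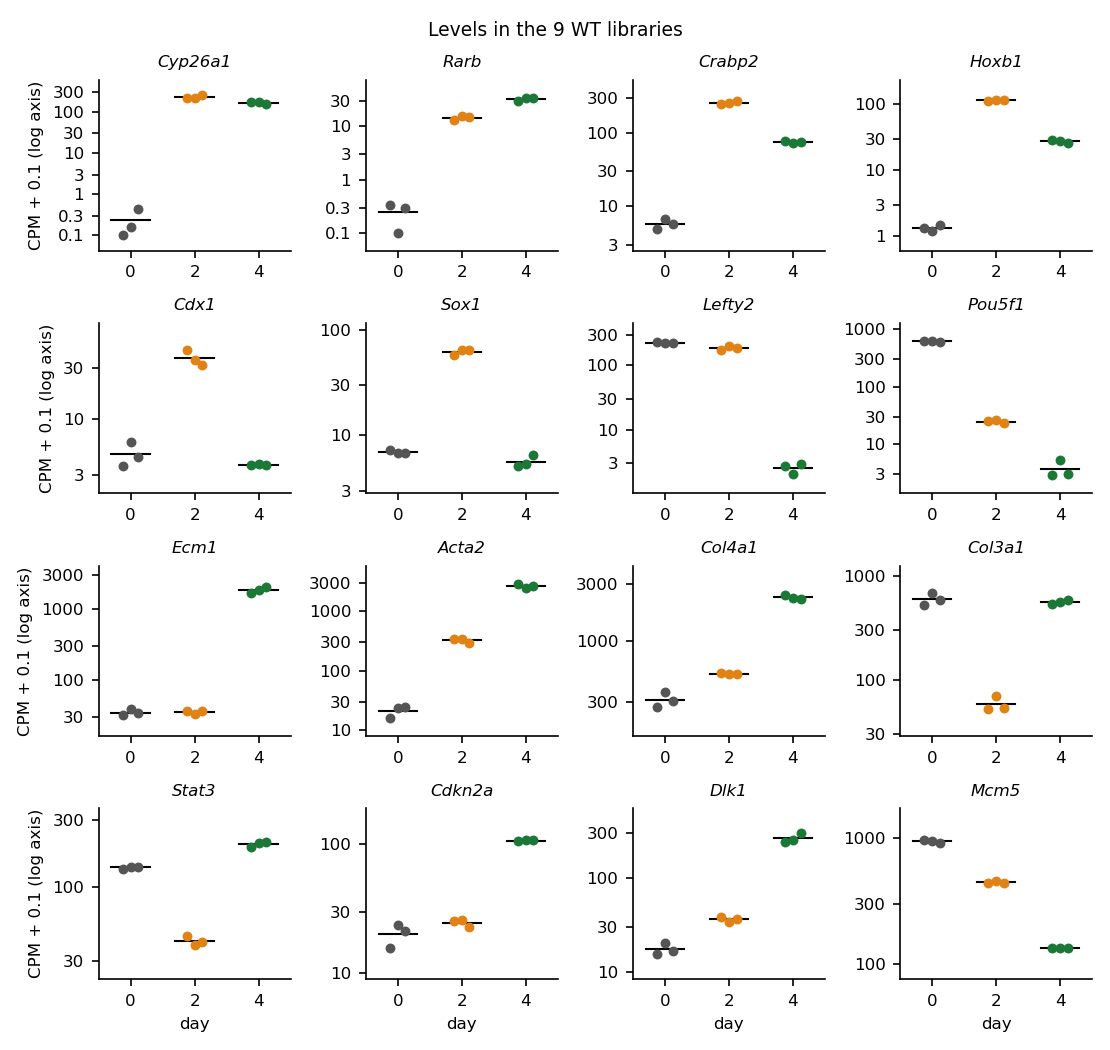
Levels of 16 genes in the 9 WT libraries, as CPM + 0.1 on a log axis, by day of retinoic acid; points are libraries and bars their means. Cdx1 and Sox1 peak at day 2, Lefty2 falls after day 2, Ecm1 rises after day 2, and Col3a1 and Stat3 dip at day 2.

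Hox genes, transcription factors that set position along the body axis, moved in both directions. Of 15 genes of paralog groups 1 to 5, 7 rose and 4 fell (median 0.18), and of 23 genes of groups 6 to 13, 12 rose and 2 fell (median 0.83). In Hoxc 8 of 9 genes rose, in Hoxd 5 of 8 rose, and none of either cluster fell. Some of these rises were near the floor. Mean levels at days 2 and 4 were 0.1282 and 0.5161 CPM for Hoxc12 and 0.3259 and 1.333 CPM for Hoxc11. For Hoxd10 they were 0.5647 and 1.344 CPM, and its days overlap. Groups 6 to 13 had medians of 1.02 in Hoxc and 1.22 in Hoxd, but 0.32 in Hoxa and -0.01 in Hoxb. Groups 1 to 5 had medians of 0.13 in Hoxa, -0.44 in Hoxb, 0.49 in Hoxc and 0.80 in Hoxd. Hoxb1, the first gene of its cluster and an early target of retinoic acid, had 28.72, 27.45 and 25.56 CPM at day 4, 111.7, 115.1 and 114.7 CPM at day 2, and 1.107 to 1.386 CPM at day 0. Its late change was -2.07 ± 0.07 (adjusted p = 7.06e-29), and every day 4 library was below every day 2 library. Hoxb5 fell by 1.01 (SE 0.08). Rises were seen in Hoxd8, at 14.21, 16.26 and 15.05 CPM at day 4 against 4.83, 5.009 and 4.185 CPM at day 2 (1.70 ± 0.17), in Hoxc6 (1.46 ± 0.12), in Hoxb13 (1.24 ± 0.20) and, at lower levels, in Hoxd4 (1.73 ± 0.35) and Hoxa6 (1.81 ± 0.39). Hoxa3, Hoxa6, Hoxb5, Hoxd4, Hoxd8, Hoxc5 and Hoxc6 each overlap another tested gene of their cluster, so part of their reads may have been shared or lost in counting. Hoxa3 rose by 7.83 by day 2 and then stayed level, at 43.8, 46.74 and 47.91 CPM at day 4 and 45.82, 39.8 and 45.35 CPM at day 2 (0.08 ± 0.08, adjusted p = 0.411).

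Cdx1 and Cdx2, homeobox factors that act upstream of the more posterior Hox genes, were transient. Cdx1 had 3.553, 3.632 and 3.619 CPM at day 4, 44.4, 35.54 and 32.23 CPM at day 2, and 3.504, 5.965 and 4.29 CPM at day 0 (late log2 fold change -3.37 ± 0.13). The day 4 libraries of Cdx1 lay within the range of day 0. Cdx2 fell by 3.05 (SE 0.25) to 1.088, 0.655 and 1.896 CPM, against 11.21, 9.545 and 9.806 CPM at day 2. Of the 12 Cdx, Meis, Pbx and Pknox genes 6 rose and 6 fell, and Meis3, a Hox cofactor, rose by 0.92 ± 0.10.

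Transient genes were found across early neural, neural crest, germ cell and endoderm lists. Sox1, a marker of the early neural plate, had 5.004, 5.24 and 6.377 CPM at day 4, 58.46, 64.31 and 64.64 CPM at day 2, and 6.642 to 7.125 CPM at day 0 (-3.48 ± 0.11). Of 19 neural progenitor genes 5 rose and 8 fell (median -0.51), and Prom1, which marks many progenitors, was among the falls (-1.56 ± 0.10). By at least 2-fold, 2 rose and 6 fell. The summed level of the list was nonetheless higher, at 681.6 to 756.1 CPM at day 4 against 492.5 to 524 CPM at day 2. Of 23 proneural and neuronal genes 6 rose and 9 fell, 4 of them each way by at least 2-fold. Ebf2 was among those that rose (1.59 ± 0.27). Dll1, the Notch ligand of nascent neurons and of mesoderm, fell by 3.83 (SE 0.16) to 1.74, 2.322 and 2.068 CPM, against 26.88, 30.19 and 31.23 CPM at day 2. Elavl3, an RNA-binding protein of neurons, was not transient and fell in both steps, in the late one by 2.53 (SE 0.24). Its mean level was 17.71 CPM at day 0, 6.407 CPM at day 2 and 1.107 CPM at day 4. Dcx, a microtubule protein of migrating neurons, had 8.485, 9.408 and 9.134 CPM at day 4, 9.165, 11.51 and 12.49 CPM at day 2 and at most 0.05841 CPM at day 0. Its late change of -0.29 ± 0.14 did not pass the test (adjusted p = 0.0717), but passed without day 2 replicate 1, at -0.41 (adjusted p = 0.0198), and among the 6 libraries alone, at -0.31 (adjusted p = 0.0403). Stra8, the retinoic acid target that starts meiosis in germ cells, had 66.79, 67.52 and 69.45 CPM at day 4, 330.3, 307.9 and 317 CPM at day 2, and 5.082 to 5.373 CPM at day 0 (-2.23 ± 0.05). Of 14 germline genes 1 rose and 10 fell, a share of falls above the 29.2% of all genes. Ap3b2, an adaptor subunit known from neurons, had 16.75, 19.89 and 18.96 CPM at day 4, against 164.7, 156.3 and 158.3 CPM at day 2 and 12.74 to 13.37 CPM at day 0 (-3.10 ± 0.06).

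Genes known from 2-cell-like cells, a rare state in ESC cultures that resembles the embryo after its first division, were mostly transient. Of 17 tested, none rose, 12 fell and 5 did not pass the test, with a median of -1.56, and 12 of the 17 met the transient class. Their summed level was 16.03 to 20.9 CPM at day 4, 51.03 to 60.5 CPM at day 2 and 5.346 to 6.888 CPM at day 0. Zscan4d had 2.901, 3.394 and 2.355 CPM at day 4, against 10.53, 10.29 and 9.681 CPM at day 2 (-1.82 ± 0.15). The Zscan4 and Usp17l families are near-identical copies, and reads may have been split among them, so single members are uncertain. In bulk RNA, fewer cells of a kind and less RNA per cell cannot be told apart, here or for any list below.

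Neural crest genes, which mark the migratory cells at the border of the neural plate, moved both ways. Of 13 tested 8 rose and 5 fell (median 0.74), so all 13 passed the test, and 3 of the 5 that fell met the transient class. Sox10 had 1.595, 1.548 and 1.034 CPM at day 4, against 6.874, 9.342 and 8.369 CPM at day 2 (-2.56 ± 0.29). Msx1, a BMP-responsive homeobox gene, fell by 1.96 (SE 0.07) to 33.72, 40.25 and 34.01 CPM, against 137, 140.4 and 144.5 CPM at day 2. Sox9 went the other way, with 42.28, 40.25 and 38.49 CPM at day 4 and 11.7, 9.951 and 13.49 CPM at day 2 (1.78 ± 0.11). Snai2, a repressor of cell adhesion genes, rose by 1.88 ± 0.17. The primitive endoderm list was split too, with 5 of 17 higher and 7 lower (median -0.17, whose sign turned to 0.13 without 1 day 2 library, replicate 1). Gata6, a founding factor of that lineage, had 70.27, 74.37 and 81.86 CPM at day 4 and 16.41, 13.34 and 17.55 CPM at day 2 (2.26 ± 0.09). The endocytic receptor gene Cubn and the lipoprotein gene Apob, products of differentiated visceral endoderm, fell by 1.30 (SE 0.11) and 4.01 (SE 0.17). Of 10 trophoblast genes 3 rose and 4 fell, Gata3 rising by 1.34 ± 0.09 and Eomes falling by 2.04 (SE 0.17). Defining markers such as Pax7 and Fabp7 of neural cells, Apoa1 of endoderm and Elf5, Tpbpa and Prl3d1 of trophoblast did not pass the filter on low counts.

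Most pluripotency genes fell further in the late step. Of 12 general pluripotency genes none rose and 11 fell (median -2.25), and of 16 naive pluripotency genes 4 rose and 11 fell (median -1.73). Pou5f1, which encodes OCT4, had 2.828, 5.299 and 2.987 CPM at day 4 and 24.89, 25.93 and 23.3 CPM at day 2 (-2.72 ± 0.11). Nanog had 6.527, 6.728 and 5.343 CPM at day 4 and 18.64, 20.92 and 18.99 CPM at day 2 (-1.66 ± 0.10). Dnmt3l, a cofactor of the de novo DNA methyltransferases, fell by 3.42 (SE 0.08), Utf1 by 3.32 (SE 0.15), and Dnmt3b, such a methyltransferase, by 2.08 (SE 0.06). Of 12 formative and primed genes 2 rose and 8 fell (median -0.89), Pou3f1 by 2.46 (SE 0.16). Lin28a, which blocks maturation of let-7 microRNAs, belonged to the genes that fell late. It had 99.79, 94.2 and 94.9 CPM at day 4, 453.7, 465.7 and 458 CPM at day 2, and 617 to 625.8 CPM at day 0 (late -2.25 ± 0.04, early -0.44). Prdm1, a repressor known from germ cell specification, also fell late, by 3.31 (SE 0.14), to 1.523, 2.799 and 2.47 CPM against 21.74, 20.71 and 26.48 CPM at day 2. Hmga2, a chromatin protein of embryonic tissues, rose by 1.41 ± 0.07 while Hmga1 fell by 1.76 (SE 0.05).

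Of 18 genes of the FGF pathway and its feedback, 3 rose and 13 fell (median -1.03). Etv5, a transcription factor induced by ERK signalling, had 14.87, 14.23 and 15.34 CPM at day 4 and 52.2, 52.4 and 50.9 CPM at day 2 (-1.81 ± 0.06). Fgf15, a ligand, fell by 4.37 (SE 0.34), and Il17rd, a feedback inhibitor, was transient (-1.53 ± 0.05). Among 15 feedback targets of Wnt, 8 rose and 5 fell (median 0.18), and 3 of the rises and 5 of the falls were at least 2-fold. The summed level of the list was 421.7 to 430 CPM at day 4 and 392 to 403.3 CPM at day 2. Large falls were those of Wnt8a (-2.74 ± 0.26), Nkd2 (-2.57 ± 0.22) and the transient Dkk1 (-2.0 ± 0.16). In the Notch list of 14 genes 5 rose and 4 fell, and Notch1 itself rose by 1.45 ± 0.07. In the Hedgehog list of 12 genes 5 rose and 5 fell. Its target genes Ptch1 (-1.58 ± 0.06) and Gli1 (-1.18 ± 0.12) fell, and the co-receptor gene Boc rose (0.93 ± 0.12).

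Genes of the contractile cytoskeleton rose together. Of 16 smooth muscle and contractile genes, all 16 rose, with a median of 1.66 against 0 over all genes, and 12 of them had also risen by at least 2-fold by day 2. Acta2, smooth muscle actin, had 2846, 2512 and 2676 CPM at day 4, 346.2, 337 and 294.7 CPM at day 2, and 16.12, 23.12 and 23.96 CPM at day 0 (3.04 ± 0.14). Actc1, an actin of the heart that embryonic smooth muscle cells also express, had 25.45, 27.27 and 25.79 CPM at day 4 and 2.229, 2.64 and 3.81 CPM at day 2 (3.17 ± 0.18). Myh11, smooth muscle myosin, rose by 2.36 ± 0.18 and Lmod1, a leiomodin, by 2.24 ± 0.10. The summed level of the list was 13720 to 14990 CPM at day 4 and 5449 to 5697 CPM at day 2. Among 10 genes of heart and skeletal muscle 4 rose and 2 fell. Myh7 had 29.95, 28.64 and 30.62 CPM at day 4 and 4.335, 5.009 and 4.247 CPM at day 2 (2.72 ± 0.16), and Myh6 fell by 1.62 (SE 0.15). Of 12 YAP target genes 9 rose and 2 fell, among them Ccn1 at 625.4, 618.2 and 605.3 CPM against 248.3, 238.1 and 233 CPM (1.36 ± 0.09). Of 12 endothelial and blood genes 3 rose and 6 fell, Cd34 by 2.66 (SE 0.33) and Pecam1 by 2.38 (SE 0.20).

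Basement membrane genes, which encode the sheet of collagen IV, laminin and nidogen under epithelia, rose in most cases. Of 19 tested, 16 rose and 2 fell, with a median of 0.92, and their summed level was 18380 to 18720 CPM at day 4 and 9264 to 9545 CPM at day 2. Col4a1 had 2414, 2301 and 2251 CPM at day 4 and 529.1, 516.2 and 525.2 CPM at day 2 (2.15 ± 0.07). Col4a2, whose chain joins that of Col4a1, had 1518, 1471 and 1459 CPM at day 4 and 302.9, 294.5 and 302.4 CPM at day 2 (2.31 ± 0.09). Col4a1 and Col4a2 overlap and lie on opposite strands. The chains of the other collagen IV network rose as well, Col4a5 by 2.58 ± 0.11 and Col4a6 by 3.23 ± 0.16. In an epithelial list of 21 genes 11 rose and 4 fell. Krt8, a keratin of simple epithelia, had 781.2, 702.4 and 746.1 CPM at day 4 and 390.5, 382.7 and 381.4 CPM at day 2 (0.95 ± 0.07), and Krt19 rose by 2.24 ± 0.09, while Epcam fell by 1.09 (SE 0.06).

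Fibroblast markers, the genes that feeder cells or cells of the mesenchyme would bring, moved both ways gene by gene, while their summed level was higher at day 4 than at day 2. Of 16 tested 7 rose and 5 fell (median 0.23), and none was at 0 on either day. Their summed level was 2879 to 2940 CPM at day 4, 1438 to 1546 CPM at day 2 and 2939 to 3905 CPM at day 0. Col3a1, a fibrillar collagen, fell and came back, with 541.5, 565.6 and 588.7 CPM at day 4, 52.14, 69.25 and 53.15 CPM at day 2, and 527.2, 694.9 and 585 CPM at day 0 (late 3.28 ± 0.12, early -3.37). Col5a1 rose by 1.36 ± 0.09 and Col1a1 by 0.96 ± 0.11 after falls of 1.29 and 1.38 by day 2. Postn, a matrix protein of fibroblasts, fell by 3.30 by day 2 and had 10.08, 16.31 and 12.18 CPM at day 4 against 10.84, 15.1 and 12.05 CPM at day 2 (0.04 ± 0.18, adjusted p = 0.871). The part of fibroblasts in the contractile, basement membrane and collagen results, or in any other result reported here, was not tested.

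Among genes of the LIF and STAT3 pathway, which holds mouse ESC in the naive state, 5 met the class that fell and rose again. These are RNA levels, and the activity of the pathway was not measured. Of 12 genes 9 rose and 2 fell in the late step (median 1.0), where the median of the early step was -1.83. The summed level was 1055 to 1124 CPM at day 4, 608.7 to 625.2 CPM at day 2 and 1114 to 1181 CPM at day 0. Stat3, the transcription factor of the pathway, had 193.6, 205.2 and 208.8 CPM at day 4, 44.9, 38.52 and 40.6 CPM at day 2, and 135.2, 139.4 and 140.1 CPM at day 0 (late 2.29 ± 0.05). Lifr, the LIF receptor, had 149.7, 170.7 and 167.1 CPM at day 4, 31.21, 31.61 and 28.54 CPM at day 2, and 113.3 to 117.5 CPM at day 0 (2.42 ± 0.07). Day 4 was the highest of the 3 days in both genes, and the libraries of the days did not overlap. Osmr, the oncostatin M receptor, and Bcl3, an IκB family member induced by STAT3, rose by 2.54 ± 0.21 and 2.26 ± 0.12 and stayed below day 0, at 12.98 to 15.34 CPM at day 4 against 22.37 to 27.18 CPM at day 0 for Osmr. Stat3 overlaps Stat5a on the other strand.

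Genes of the cell cycle fell together. All 24 genes of the G1/S transition and DNA replication fell (median -1.18), and so did all 24 of G2 and mitosis (median -1.09). The summed level of the G1/S list was 1626 to 1693 CPM at day 4, 3769 to 3905 CPM at day 2 and 6970 to 7212 CPM at day 0. That of the G2/M list was 1830 to 1922 CPM at day 4, 3855 to 3999 CPM at day 2 and 7228 to 7298 CPM at day 0. Mcm5, a subunit of the replicative helicase, had 134.4, 133.9 and 133.7 CPM at day 4 and 437.4, 449.1 and 440 CPM at day 2 (-1.72 ± 0.04). Cdc6, which loads that helicase, fell after a flat first step, with 23.71, 22.69 and 24.82 CPM at day 4, 82.55, 92.13 and 88.19 CPM at day 2, and 103.5 to 110.9 CPM at day 0 (-1.88 ± 0.06). Cenpf, a kinetochore protein, had 90.07, 83.48 and 81.57 CPM at day 4 and 238.7, 235 and 204.6 CPM at day 2 (-1.41 ± 0.06). Mki67, the proliferation marker Ki-67, fell by 1.31 (SE 0.05), and the mitotic cyclin gene Ccnb1 by 0.87 (SE 0.05).

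The promoters of Cdc6 and Cenpf are shown as examples of elements common in these lists. Each was picked as the largest late fall, among the genes named for its list, whose window held the match. E2F factors, which act at G1/S, were searched as TTGGCGC or TTCCCGC on either strand, and 57.1% of 21 windows of G1/S genes held a match, against 6.81% of all 32851 windows and 11.1% of 16017 windows of tested genes. Genes of G2 and mitosis often carry a CHR element, searched as TTTGAA, near a CCAAT box. Both were present in 72.2% of 18 windows of G2/M genes, against 6.95% of all windows and 4.91% of windows of tested genes. The falling classes stood much nearer to all tested genes. In the late fall class 14.3% of windows held an E2F match and 6.62% held both CHR and CCAAT. For genes that fell in both steps the shares were 10.5% and 7.6%. Capitals mark E2F in Cdc6, 138 bases before the start, and in Cenpf 2 CCAAT boxes, 132 and 71 bases before it, and a CHR element at base 3 (GRCm38.p6, chr11:98908001-98908180, plus strand, and chr1:189688057-189688236, minus strand).
Cdc6: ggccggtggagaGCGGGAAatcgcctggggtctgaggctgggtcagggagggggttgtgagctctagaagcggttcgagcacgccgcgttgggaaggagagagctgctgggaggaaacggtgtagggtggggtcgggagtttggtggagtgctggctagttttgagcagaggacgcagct
Cenpf: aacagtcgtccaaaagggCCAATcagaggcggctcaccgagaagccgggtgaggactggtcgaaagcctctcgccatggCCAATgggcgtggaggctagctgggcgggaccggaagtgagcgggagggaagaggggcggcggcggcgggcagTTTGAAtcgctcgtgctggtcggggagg
These matches are a description of the letters in the windows and say nothing of whether a factor was bound.

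Of 16 G1 cyclins, G1 kinases, CDK inhibitors and pocket proteins, 12 rose and 1 fell (median 0.46). Cdkn2a, whose products p16INK4a and p19ARF hold back the cycle, had 105.8, 107.5 and 108.4 CPM at day 4, 25.02, 25.86 and 22.55 CPM at day 2, and 15.65, 23.43 and 20.99 CPM at day 0 (2.13 ± 0.09). Its neighbour Cdkn2b had 99.71, 95.09 and 92.43 CPM at day 4 and 20.62, 22.75 and 21.3 CPM at day 2 (2.15 ± 0.10). Both rose late, after a first step within 0.5. Cdkn1a, the inhibitor p21, had 403.9, 409.9 and 403.9 CPM at day 4 and 195.7, 189.7 and 188.7 CPM at day 2 (1.08 ± 0.07). Ccnd2, a G1 cyclin that drives the cycle, rose as well, by 1.54 ± 0.07. Of 25 p53 targets and family members 17 rose and 4 fell (median 0.47), Btg2 by 1.24 ± 0.06 and the death receptor gene Fas by 1.74 ± 0.22. Of 18 immediate-early and handling genes 12 rose and 4 fell, with Fos at 36.77, 36.56 and 31.08 CPM at day 4 against 9.227, 7.108 and 10.31 CPM at day 2 (1.96 ± 0.19).

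Imprinted genes, expressed from the copy of 1 parent, mostly rose, with 19 of 30 higher and 7 lower (median 0.70). Dlk1, a paternally expressed Notch-like ligand, had 242.4, 253.2 and 299.9 CPM at day 4 and 37.77, 34.12 and 36.23 CPM at day 2 (2.88 ± 0.08). Igf2, the paternally expressed growth factor, had 126.6, 121.1 and 151.8 CPM at day 4 and 37.15, 32.49 and 26.67 CPM at day 2 (2.05 ± 0.10). Igf2r, the maternally expressed receptor that clears IGF2, rose late, to 852.3, 900.6 and 922.7 CPM at day 4 against 225.5, 228 and 212.5 CPM at day 2 (2.01 ± 0.05). Genes of both parental origins thus rose. Igf2r overlaps the antisense RNA gene Airn, and Zim1 rose by 2.64 ± 0.09.

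Lysosomal genes rose in 21 of 23 cases with 1 fall (median 0.74). Of the 21, 6 rose by at least 2-fold, and 5 genes met the late rise class. Ctsd, the protease cathepsin D, had 536.4, 580.6 and 577.6 CPM at day 4, 178.3, 173.6 and 176.7 CPM at day 2, and 128.7 to 142.6 CPM at day 0 (1.68 ± 0.06). Lamp2, a membrane protein of the lysosome, had 287.1, 301.5 and 303.8 CPM at day 4 and 89.85, 97.14 and 97.5 CPM at day 2 (1.65 ± 0.06). Cytosolic ribosomal protein genes moved the other way, with none of 83 higher and 79 lower (median -0.47). Rpl6 had 428.7, 392.8 and 380.5 CPM at day 4 and 713.4, 755.5 and 715.1 CPM at day 2 (-0.86 ± 0.04), and the largest fall was that of Rpl10l, a testis-enriched paralog (-2.02 ± 0.14). The 80 nuclear respiratory chain genes lay near the shares of all genes, with 17 higher and 23 lower, and the summed level of mitochondrial genome genes overlapped between days, at 15350 to 18420 CPM at day 4 and 15120 to 17610 CPM at day 2.

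Metabolic lists that fell were one-carbon and serine enzymes (1 of 15 higher and 13 lower, median -0.84), glycolysis (4 of 21 higher and 15 lower, median -0.47) and cholesterol synthesis (1 of 22 higher and 16 lower, median -0.31). Psat1, an enzyme of serine synthesis, had 69.18, 60.38 and 63.65 CPM at day 4 and 160.7, 175.3 and 170.6 CPM at day 2 (-1.39 ± 0.05). Slc2a3, the glucose transporter GLUT3, had 393.7, 365.4 and 374.2 CPM at day 4 and 1394, 1585 and 1431 CPM at day 2 (-1.96 ± 0.05). Eno2, the enolase of neurons, was an exception and rose by 2.19 ± 0.11. Trib3 (-1.89 ± 0.15) and Slc7a5 (-1.37 ± 0.06), targets of the stress factor ATF4, were among 9 of 16 genes of that list that fell.

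In smaller numbers, 3 of 10 oncofetal RNA-binding and HMGA genes rose and 7 fell, 2 of 12 primitive streak genes rose and 5 fell, and 7 of 17 interferon response genes rose and 2 fell.

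Of 26 histone chaperones 4 rose and 20 fell (median -0.45). Only 30 of 67 clustered histone genes passed the low-count filter, and of these 3 rose and 10 fell (median -0.75). Of the 67, 18 had no counts in the day 4 libraries. Their summed level was low and overlapped between days, at 52.16 to 57.88 CPM at day 4 and 53.46 to 57.13 CPM at day 2. The median therefore does not stand for a fall of the list as a whole. Nap1l1, the gene knocked out elsewhere in the series, had 413.1, 382.7 and 383.1 CPM at day 4, 856.6, 861.5 and 855.5 CPM at day 2, and 996.8 to 1068 CPM at day 0. It fell by 1.13 (SE 0.04; adjusted p = 8.05e-28) in the late step after a change of -0.26 in the first, and so belonged to the genes that fell late. Nasp, a chaperone of H3 and H4, fell in both steps (late -1.49 ± 0.04). Among 24 Polycomb genes 7 rose and 13 fell. The catalytic subunit gene Ezh2 fell by 0.89 (SE 0.04), while Cbx8, a reader of the mark that EZH2 makes, rose by 1.62 ± 0.15. In the BAF remodelling complex 8 of 21 genes rose and 6 fell. Smarca2, the ATPase that replaces SMARCA4 in some complexes, rose late, to 45.47, 44.72 and 48.94 CPM at day 4 against 12.82, 10.09 and 11.55 CPM at day 2 (2.01 ± 0.10).

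The class rule used WT contrasts and no knockout contrast, although the knockout libraries shared the fit, its scaling and its error estimate. In alphaKO 30.1% of genes rose and 28.1% fell at day 4 against day 2, and in fullKO 29.6% rose and 28.9% fell. Of the 560 genes that rose in both WT steps, 479 (85.5%) rose in alphaKO and 509 (90.9%) in fullKO. Of the 400 that rose late in WT, 335 (83.8%) rose in alphaKO and 328 (82.0%) in fullKO. Of the transient genes, 303 of 538 (56.3%) fell in alphaKO and 300 (55.8%) in fullKO. Of the late falls, 237 of 378 (62.7%) fell in alphaKO and 263 (69.6%) in fullKO. Of the genes that fell in both WT steps, 374 of 496 (75.4%) fell in alphaKO and 398 (80.2%) in fullKO. Of the genes that fell and rose again in WT, 132 of 194 (68.0%) rose in alphaKO and 130 (67%) in fullKO. These shares describe the lists, and the difference between classes was not tested.

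The difference of the step itself was tested as knockout minus WT. It was called for 15.4% of genes as higher and 13.1% as lower in alphaKO, and for 13.1% as higher and 10.5% as lower in fullKO. In all, 28.4% of genes were called in alphaKO and 23.6% in fullKO. Positive values mean a larger rise or a smaller fall in the knockout, and both tests share the WT libraries. The genotypes did not start the step at the same levels. Mean day 2 levels in WT, alphaKO and fullKO were 19.51, 147.2 and 342.4 CPM for Nanog and 442.2, 593.2 and 636.2 CPM for Mcm5. They were 10.17, 12.84 and 55.23 CPM for Zscan4d and 186.2, 93.64 and 147.2 CPM for Lefty2. The part of these starting levels in the differences below was not tested. The G1/S list fell less in alphaKO, with 23 of 24 genes called higher in the difference, and in fullKO 15 of 24 were. For G2/M genes the counts were 23 of 24 in alphaKO and 12 of 24 in fullKO, with 1 lower in fullKO. Of 17 genes of 2-cell-like cells, 13 were called higher in the difference in alphaKO and 11 in fullKO. The median change of that list was 0.32 in alphaKO and -0.34 in fullKO, against -1.56 in WT. The LIF and STAT3 list rose less, with 10 of 12 genes called lower in alphaKO and 9 of 12 in fullKO, and Stat3 differed from WT by -1.01 in alphaKO (adjusted p = 5.6e-15) and -0.86 in fullKO (adjusted p = 1.42e-12). Of 16 contractile genes, 10 were called lower in alphaKO and none higher, and in fullKO 8 were called higher and 3 lower. The knockouts were not tested against each other. Acta2 rose by 5.01 in fullKO, a difference from WT of 1.97 (adjusted p = 3.3e-10), and by 3.06 in alphaKO, a difference of 0.02 (adjusted p = 0.959). Its mean level was 23.83 CPM at day 2 and 765 CPM at day 4 in fullKO, and 60.06 and 501.4 CPM in alphaKO. In WT it was 326 and 2678 CPM, so the larger rise in fullKO began and ended at a lower level than in WT. Fibroblast markers were called higher in the difference in 6 of 16 genes in alphaKO and 12 of 16 in fullKO, and their part in the contractile result was not tested. Lefty2 fell less in both, by 3.95 in alphaKO and 3.67 in fullKO, and the differences from WT were 2.29 and 2.57. Rarb rose by 1.14 in alphaKO and 1.13 in fullKO, and the differences from WT of -0.05 ± 0.13 and -0.07 ± 0.13 did not pass the test (adjusted p = 0.811 and 0.775).

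**Figure D4:**
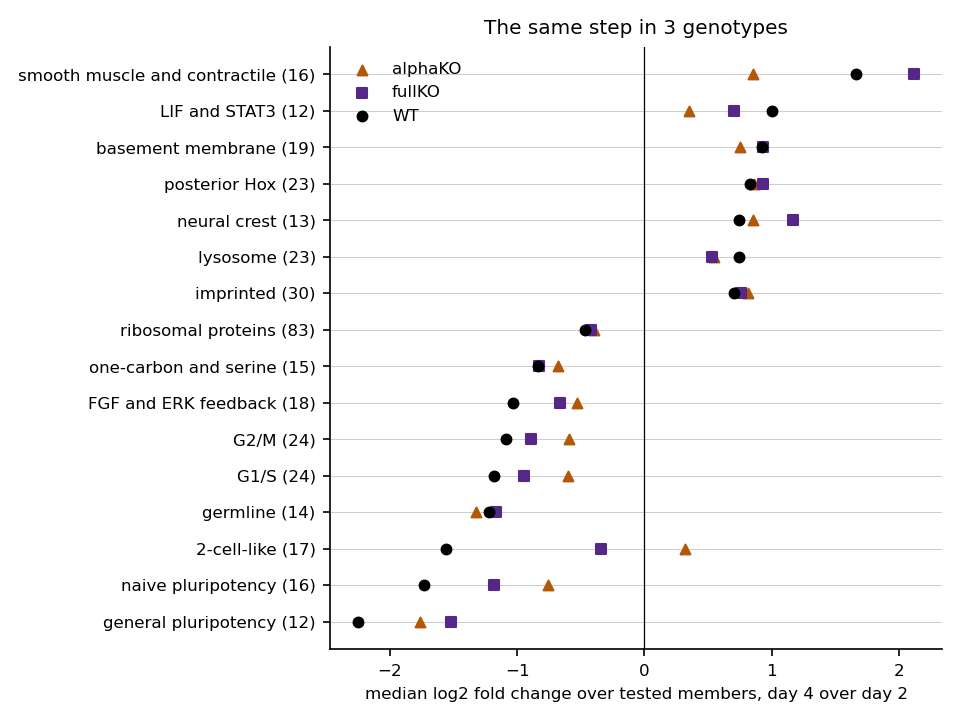
Median log2 fold change at day 4 over day 2 for 16 gene lists in alphaKO (triangles), fullKO (squares) and WT (circles), with the number of members tested in brackets. The 2-cell-like list lies at 0.32 in alphaKO and -0.34 in fullKO against -1.56 in WT, and the contractile list at 0.85 in alphaKO and 2.12 in fullKO against 1.66 in WT.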

How the data were processed

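RNA of KH2 mouse ESC was sequenced from stranded mRNA libraries, per the labels' protocols. The authors deposited whole-number read counts per gene, not normalized, in a table of 26 libraries and 55471 genes. Reads were handled with FastQC and STAR 2.7.1a on mm10, per the submitters' processing notes. The counting program and strand setting are named in none of the sources used here. Of the 242 named genes, 56 overlap another tested gene, and their counts may hold or lack reads of that neighbour. Symbols and positions came from GENCODE M21 (mm10), which matched 55230 of the 55471 gene IDs.

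Counts of all 26 libraries in 9 groups were fitted together with edgeR 4.0.16 (R 4.3.3) after its low-count filter, which left 18412 genes, with TMM scaling. The quasi-likelihood test gave each contrast, with 17 residual degrees of freedom, a biological coefficient of variation of 0.0495, and Benjamini-Hochberg adjustment over all genes tested. A gene was called at an adjusted p under 0.05. The standard error was taken from the log2 fold change and its F statistic. In counts simulated for day 4 against day 2 over 16629 genes, the test recovered 96% of 100 genes changed 2-fold and 91% of 100 changed 1.5-fold, with 9 false calls. The simulation gave every gene the same spread and all groups the same means. It changed no other gene, and none at the lowest levels. Its rates are therefore not those of the real data, where spread differs by gene and many genes change.

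The comparison and the 50 gene lists were chosen with earlier results of these data known, and list counts are descriptions over the 984 of 1067 list entries that passed the low-count filter. Named genes were 12 with the largest change each way, up to 4 called per list, 6 per class, 4 each way per knockout difference, and a fixed set, with minimum levels in CPM. Counting intervals are exact, at 95%, and cover counting error only. Promoter windows came from RefSeq (GRCm38.p6). Alternatives were DESeq2 1.42.0, other scalings and low-count filters, fits on fewer libraries, a replicate block, leaving out each WT day 2 or day 4 library and other fold limits for the classes. Figures were drawn with matplotlib 3.10.9. Some genes are not reported here.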

Additional observations from a re-analysis of the deposited data

Results flagged for a closer look

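The change from day 2 to day 4 differed between each knockout and WT, by edgeR's test of the difference itself, in 5234 genes for alphaKO and 4354 genes for fullKO. The largest differences of alphaKO from WT each way are given first, as knockout minus WT on the log2 scale, for genes averaging 10 CPM or more in WT or alphaKO on day 2 or 4. Below that level, Fgf15 differed by 5.51, with a change of 1.14 in alphaKO and -4.37 in WT. Aldh1a2, an enzyme that makes retinoic acid, differed by 4.81, with a change of 4.26 in alphaKO and -0.55 in WT, where it did not pass the test (adjusted p = 0.0682). The long noncoding RNA Miat differed by 4.62, with 3.27 in alphaKO and -1.34 in WT. Tfap2b, an AP-2 factor of neural crest and other tissues, differed by 4.41, with 5.16 in alphaKO and 0.74 in WT, and the WT change is lost under 5 alternatives, at adjusted p values of 0.0618 to 0.282. Robo3, an axon guidance receptor, differed by 3.74, with 4.13 in alphaKO and 0.38 in WT. In the other direction Stmn4, a neuronal stathmin, differed by -3.15, Mocos by -3.04, Tent5a by -2.55 and Cemip, which breaks down hyaluronan, by -2.42. Stmn4 changed by -2.68 in alphaKO and 0.47 in WT, and Cemip by -0.91 in alphaKO and 1.5 in WT.

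For fullKO the largest differences above WT were in Ankrd1, a YAP target (3.31, with 2.85 in fullKO and -0.46 in WT), Postn (3.15, with 3.19 in fullKO and 0.04 in WT), the chemokine Cxcl12 (3.12, with 4.11 in fullKO and 0.99 in WT) and the endothelin receptor gene Ednrb (3.03, with 2.01 in fullKO and -1.01 in WT). Those below WT included Jam2, a junction protein (-2.73, with -1.12 in fullKO and 1.62 in WT), Fgf18 (-2.71, with -1.42 in fullKO and 1.30 in WT) and the activin subunit gene Inhbb (-2.14, with -1.77 in fullKO and 0.37 in WT). Postn and Cxcl12 are also expressed by fibroblasts, whose part was not tested. The WT libraries serve both knockouts, so the 2 sets of differences are not independent. Groups of days 2 and 4 hold 3 libraries each, and no check for outlying single values was made on groups of that size.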

How the results depend on the processing

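The counts of genes that rose and fell at WT day 4 against day 2 stayed within 1.5 times those reported under every alternative run, and no gene called in both had the opposite sign. DESeq2 gave 5317 higher and 5477 lower, and the 6 libraries alone gave 5286 and 5075. Leaving out each of the 6 WT day 2 and day 4 libraries in turn gave 5167 to 5299 higher and 5004 to 5085 lower. Same-numbered libraries of the days did not deviate together (r of -0.012 to 0.01 over genes), and a replicate block gave 5458 higher and 5289 lower. Other scalings moved the median over all genes by at most 0.02 in size.

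The class counts depend on the fold limit. At 1.5-fold there were 811 transient genes, 1376 that rose in both steps, 944 late rises, 2165 early rises that were held, 449 that fell and rose again, 776 late falls and 1130 that fell in both steps. At 4-fold the counts were 148, 79, 79, 570, 49, 114 and 123 in the same order. Leaving out 1 of the 6 libraries gave 480 to 527 transient genes, and a fit of the 9 WT libraries alone gave 442. No WT day 0 or knockout library was left out in turn. The median of the primitive endoderm list, -0.17, became 0.13 without WT day 2 replicate 1, lay between -0.3 and that value over libraries left out, and the cause was not tested. Of the other recomputed list medians, 55 moved by at least 0.1 (log2) and 644 by less, and some medians close to 0 changed sign. Of the values for named genes in WT, 3363 kept their side of the threshold, and the called ones among them kept their direction. Values not called in either fit were counted as kept whatever their sign. A further 17 lost the call (Aldh1a3, Amn, Hist3h2a, Stmn4, Tfap2b and Ankrd1) and 4 gained one (Dcx and Aldh1a2). Among knockout differences of named genes 475 were kept by the same rule and 5 lost the call. At these depths a gene with few counts on both days has a wide error, as for Hoxd4 (SE 0.35).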
